A study of Mus musculus with 40 samples.

Results

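The Hox genes of the mouse were described in stem cells and early lymphoid progenitors of the bone marrow, with and without the chromatin regulator Mbd3. The members were the protein-coding genes whose symbol is Hoxa, Hoxb, Hoxc or Hoxd followed by a number only. The rule gave 39 of the 49585 gene rows, and 38 of these are described here. They comprised 10 Hoxa genes on chromosome 6 (52162417 to 52260880, minus strand), 10 Hoxb genes on chromosome 11 (96194316 to 96368256), 9 Hoxc genes on chromosome 15 (102921103 to 103036852) and 9 Hoxd genes on chromosome 2 (74668310 to 74765142). The last 3 clusters lie on the plus strand, and positions are on GRCm38.

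Hox genes encode homeodomain transcription factors that stand in 4 clusters, each numbered from the anterior to the posterior end of the body region that its genes pattern in the embryo. In blood formation, genes of the Hoxa and Hoxb clusters are active in stem cells and are turned down as cells mature, and sustained Hoxa9 with its partner Meis1 is a known driver of leukaemia. Their chromatin is kept active by the histone methyltransferase Kmt2a (MLL1) and its partners and kept silent by the Polycomb complexes. Mbd3 is a subunit of NuRD, which combines nucleosome remodelling with histone deacetylation.

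The tested mice, called Mbd3del, had the genotype Mbd3_Del/Del, and the control mice had Mbd3_Flox/Flox, both on the C57BL6/129Ola strain at 46 to 51 days of age. Each genotype had 5 mice, and 4 populations were sorted from each mouse, which gave 8 groups of 5 libraries. Haematopoietic stem cells (HSCs) were gated on CD45, CD150 and EPCR without CD48. The other 3 populations were LMPPs (multipotent progenitors primed toward lymphoid fates), ALPs (progenitors of all lymphoid lineages) and BLPs (lymphoid progenitors biased toward B cells). They all lacked lineage markers and B220, carried Sca-1 and c-Kit, and had high Flt3. The IL-7 receptor α chain was absent on LMPPs and present on ALPs and BLPs, and Ly6D was present on BLPs and absent on ALPs. No label names the Cre driver, its timing or its cell type, so which other cells of the mice carried the deletion is unknown here. For LMPPs of Mbd3del mice the titles say floxed, while genotype and description give the deletion, which was followed.

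Libraries held 2974305 to 9082610 gene counts, and 12845 to 15745 genes were detected in each. Mitochondrial genes took 2.35% to 7.75% of the gene counts. Mbd3 had 0 to 3.24 counts per 1000000 gene counts (CPM) in the 20 Mbd3del libraries and 8.18 to 165 CPM in the 20 control libraries. Slamf1 and Il7r transcripts followed the gates: Slamf1 (CD150) averaged 99.2 CPM in Mbd3del and 131 CPM in control HSCs and at most 1.94 CPM elsewhere, and Il7r had at most 6.60 CPM in any HSC or LMPP library and at least 245 CPM in any ALP or BLP library. Cd48 and Flt3 were called higher and Procr (EPCR) lower in LMPPs than in HSCs in both genotypes. Kit was called lower in ALPs than in LMPPs, though c-Kit was gated on both (log2 fold change -1.91 in Mbd3del and -2.08 in control mice, edgeR adjusted p = 0.00741 and 0.0231). Ly6d was not absent in ALPs, with 71.5 to 493 CPM in Mbd3del and 47.0 to 118 CPM in control libraries. Of the 10 mice, control mouse10372 and control mouse10381 went against their labelled sex by Xist and Ddx3y. Both are control mice under either label, and comparisons were repeated without them.

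The Hox transcripts of these cells came from a small part of the clusters. Of 67794 Hox counts over the 40 libraries, the Hoxa cluster held 65331 (96.4%), the Hoxb cluster 2371 (3.497%), the Hoxc cluster 67 (0.0988%) and the Hoxd cluster 25 (0.0369%). Hoxa9 alone held 46207 counts, Hoxa7 had 8501, Hoxa10 had 5680 and Hoxa5 had 3408. All 4 lie between Hoxa5 and Hoxa10. The Hoxa genes described here that were counted in most libraries ran from Hoxa2 to Hoxa10, but Hoxa4 and Hoxa6 within that stretch had only 38 and 28 counts. The genes on its posterior side were silent or nearly so: Hoxa13 had no count and Hoxa11 a single count in all libraries.

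**Figure D1:**
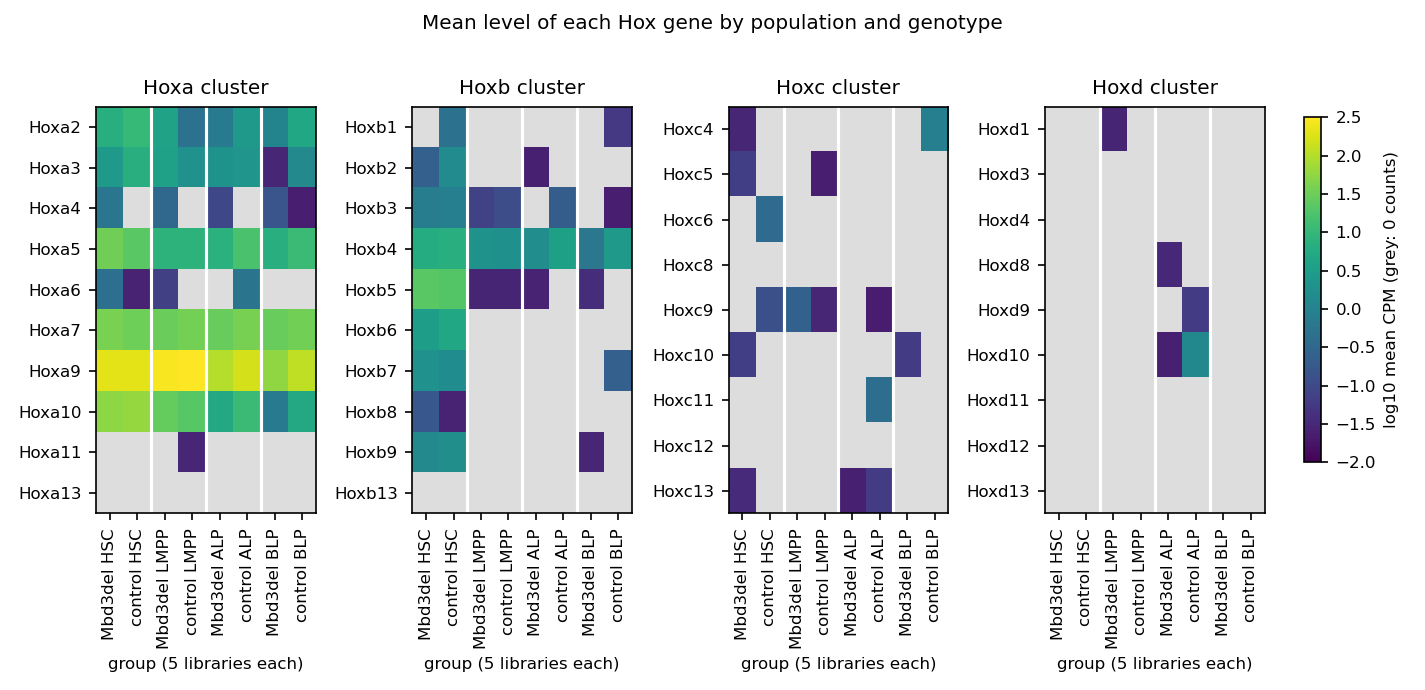
Mean CPM of the 38 Hox genes, on a log10 colour scale, in the 8 groups of 5 libraries, with 1 panel per cluster and genes ordered by number. Grey marks groups with 0 counts. Hoxa9 was the brightest row in every group, most Hoxb genes had their strongest colour in the HSC columns, and nearly all Hoxc and Hoxd cells were grey.

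No count was recorded in any library for 9 members, namely Hoxa13, Hoxb13, Hoxc8, Hoxc12, Hoxd3, Hoxd4, Hoxd11, Hoxd12 and Hoxd13. Including these, 16 members never reached 3 counts in a library. A total of 3 counts over the 5 libraries of a group corresponds to 0.0829 to 0.116 CPM, which is the level that a count of 0 still allows. In Hoxc the highest value was 29 counts (4.30 CPM) of Hoxc4 in the BLPs of control mouse10372, and Hoxc4 had a single count in the rest of the series. In Hoxd the highest was 21 counts (6.24 CPM) of Hoxd10 in the ALPs of the same mouse. Group means reached 5 CPM for 8 members: Hoxa2, Hoxa3, Hoxa5, Hoxa7, Hoxa9, Hoxa10, Hoxb4 and Hoxb5. Only these and Hoxb6 passed the expression filter of any comparison, so 29 of the 38 members were tested in none.

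The proteins of these genes share the homeodomain, whose recognition helix reads DNA. The coding bases of that helix, read in the GENCODE M21 transcripts from the codons of the common motif WFQNRR onward, are shown for the members that the results turn on, with capitals where a gene differs from Hoxa9.
Hoxa9: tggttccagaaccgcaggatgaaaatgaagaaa
Hoxa10: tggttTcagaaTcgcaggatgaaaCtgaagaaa
Hoxa7: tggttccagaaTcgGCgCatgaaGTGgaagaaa
Hoxa5: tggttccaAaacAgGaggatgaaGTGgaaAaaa
Hoxb4: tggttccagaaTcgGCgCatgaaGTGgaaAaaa
Hoxb5: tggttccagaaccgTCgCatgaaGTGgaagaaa
Hoxb6: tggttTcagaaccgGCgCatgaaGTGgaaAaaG
Over these 33 bases Hoxa10 differed from Hoxa9 at 3 positions, Hoxb5 at 6, Hoxa5 and Hoxa7 at 7, Hoxb4 at 8 and Hoxb6 at 9. Over whole transcripts, the longest exact run that the tested members shared with another Hox gene was between 21 bases (Hoxa10) and 52 bases (Hoxb4). Neither the read length nor the handling of multiply mapped reads is known here, so some counts may be split or lost between such copies.

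Hoxa9, a posterior-group gene with a leading role in stem and progenitor cells (chromosome 6, 52223100 to 52231089, ENSMUSG00000038227), was the most abundant Hox transcript per kb of exon in each of the 8 groups, by the least in Mbd3del BLPs, where Hoxa7 had 9.88 and Hoxa9 9.99 CPM per kb. In HSCs the Mbd3del libraries had 252, 202, 237, 161 and 199 CPM and the control libraries 195, 231, 179, 231 and 204 CPM. In LMPPs the Mbd3del libraries had 338, 298, 274, 310 and 232 CPM and the control libraries 463, 256, 229, 351 and 222 CPM. LMPPs had the highest means of the 4 populations in both genotypes, and the ranges of the genotypes overlapped in both HSCs and LMPPs.

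In ALPs Hoxa9 had 91.7, 111, 108, 108 and 88.9 CPM in the Mbd3del libraries and 140, 167, 209, 111 and 170 CPM in the control libraries. In BLPs it had 39.7, 60.6, 61.9, 42.4 and 74.0 CPM in the Mbd3del libraries and 54.6, 131, 177, 135 and 98.5 CPM in the control libraries. Every Mbd3del ALP library lay below 4 of the 5 control ALP libraries, and the fifth, of control mouse10380, fell just within the Mbd3del range. In BLPs the libraries overlapped through control mouse10357 alone. Per kb of exon the mean levels along the path were 37.7, 52.0, 18.2 and 9.99 CPM in Mbd3del cells and 37.3, 54.6, 28.5 and 21.4 CPM in control cells, from HSCs through LMPPs and ALPs to BLPs.

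Hoxa10, the next gene of the cluster and likewise of the posterior group (52231197 to 52240854), was highest in HSCs and lowest in BLPs. HSCs had 49.0, 45.7, 63.6, 51.0 and 60.7 CPM in the Mbd3del libraries and 61.1, 79.4, 62.7, 47.5 and 59.2 CPM in the control libraries. LMPPs had 29.6, 28.7, 25.0, 33.0 and 23.0 CPM in Mbd3del and 34.3, 38.5, 14.8, 11.8 and 6.05 CPM in control libraries. The control LMPP libraries had the widest spread of the 8 groups for this gene (SD 14.4 CPM), and the Mbd3del values lay within their range.

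ALPs had 12.96, 5.87, 2.54, 3.24 and 1.84 CPM of Hoxa10 in the Mbd3del libraries and 13.1, 10.9, 3.27, 9.36 and 22.5 CPM in the control libraries. BLPs had 0, 0.282, 1.54, 0.488 and 1.39 CPM in the Mbd3del and 0.765, 5.86, 6.67, 8.94 and 3.90 CPM in the control libraries. In BLPs 4 of the 5 control libraries lay above every Mbd3del library. Hoxa10 made up 7.61% ± 0.619 of the Hox counts of Mbd3del LMPPs and 5.58% ± 3.59 of those of control LMPPs, against 14.2% ± 1.48 in Mbd3del and 16.4% ± 2.73 in control HSCs (SD, n = 5 each). Hoxa9 made up 79.2% ± 2.12 of the Hox counts in Mbd3del LMPPs and 81.4% ± 5.19 in control LMPPs, its largest shares (SD, n = 5 each).

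**Figure D2:**
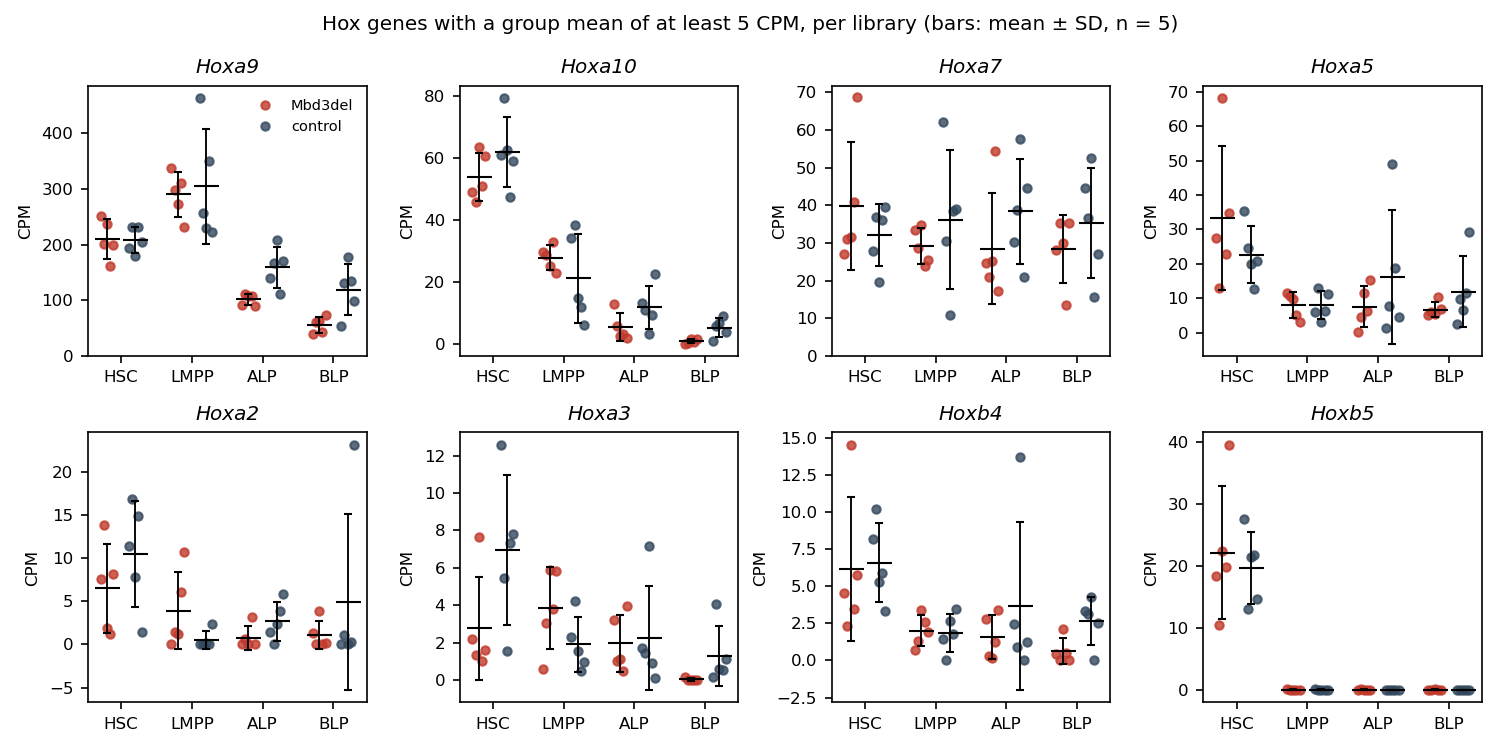
CPM of the 8 Hox genes with a group mean of at least 5 CPM, each point 1 library, for Mbd3del (red) and control (grey blue) in the 4 populations, with bars at the mean ± SD (n = 5). Hoxa9 and Hoxa10 were lowest in BLPs, Hoxa7 had similar means in all 4 populations, and Hoxb5 lay near 0 in every library outside HSCs.

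Hoxa7, a central-group gene (52214491 to 52221854), had similar means in all populations. These were 39.8 ± 17.0 and 32.0 ± 8.21 CPM in Mbd3del and control HSCs, 29.2 ± 4.85 and 36.2 ± 18.5 CPM in LMPPs, 28.5 ± 14.8 and 38.4 ± 14.0 CPM in ALPs, and 28.4 ± 8.97 and 35.3 ± 14.5 CPM in BLPs (SD, n = 5 each). Of the exon bases of Hoxa7, 20.4% are shared with the antisense gene Hoxaas3, and the libraries do not mark strand. Hoxa7 passed the threshold in no comparison, and its fold change for BLPs over HSCs was -0.28 ± 0.38 in Mbd3del and 0.24 ± 0.40 in control mice (SE). Its share of the Hox counts stood at 30.0% ± 6.68 in Mbd3del and 21.05% ± 12.4 in control BLPs, against 10.5% ± 4.14 in Mbd3del and 8.38% ± 1.92 in control HSCs (SD, n = 5 each).

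Hoxa5, also of the central group (52201754 to 52204587), was highest in HSCs and lower, with wide spread, in the other populations. HSCs had 27.6, 13.1, 68.1, 22.8 and 34.9 CPM in the Mbd3del libraries and 35.3, 24.7, 19.9, 12.8 and 20.9 CPM in the control libraries. LMPPs had 11.6, 10.7, 9.82, 5.04 and 3.10 CPM in Mbd3del and 6.17, 12.95, 3.24, 6.39 and 11.3 CPM in control libraries. Every Mbd3del LMPP library lay below every Mbd3del HSC library, whereas the highest control LMPP library lay just above the lowest control HSC library. ALPs ranged from 0.139 to 15.3 CPM in Mbd3del and from 1.38 to 49.1 CPM in control libraries. BLPs ranged from 5.15 to 10.4 CPM in Mbd3del and from 2.45 to 29.2 CPM in control libraries.

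The anterior genes Hoxa2 (52162417 to 52164831) and Hoxa3 (52169062 to 52213336) were low and uneven. Hoxa2 had 1.23 to 13.8 CPM in Mbd3del and 1.39 to 16.8 CPM in control HSCs, with medians of 7.59 and 11.4 CPM. It was at 0 in 6 of the 15 Mbd3del and 6 of the 15 control libraries outside HSCs, while 1 control BLP library, of mouse10381, reached 23.1 CPM. Hoxa3 had 1.02 to 7.65 CPM in Mbd3del and 1.55 to 12.6 CPM in control HSCs. In BLPs Hoxa3 was at 0 in 4 of 5 Mbd3del libraries and at 0.152 CPM in the other one, against 0.153 to 4.06 CPM in control libraries. Of the exon bases of Hoxa3, 27.1% are shared with other genes. Hoxa4 and Hoxa6, between these and Hoxa7, had 38 and 28 counts over all libraries.

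The start regions of these genes are shown as RefSeq lists them on GRCm38.p6, from 250 bases before to 50 bases after the start, with each CG dinucleotide in capitals because that is the site of DNA methylation in mammals. Hoxa9 and Hoxa10 are printed as the most abundant of the Hoxa genes called along the path and Hoxa7 as the abundant neighbour that did not pass the threshold.
Hoxa9: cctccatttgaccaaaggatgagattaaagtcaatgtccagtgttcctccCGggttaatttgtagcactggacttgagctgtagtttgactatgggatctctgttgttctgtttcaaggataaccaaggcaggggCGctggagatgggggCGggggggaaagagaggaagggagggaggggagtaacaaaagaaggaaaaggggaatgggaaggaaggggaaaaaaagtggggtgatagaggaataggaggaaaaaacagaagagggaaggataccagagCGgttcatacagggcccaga
Hoxa10: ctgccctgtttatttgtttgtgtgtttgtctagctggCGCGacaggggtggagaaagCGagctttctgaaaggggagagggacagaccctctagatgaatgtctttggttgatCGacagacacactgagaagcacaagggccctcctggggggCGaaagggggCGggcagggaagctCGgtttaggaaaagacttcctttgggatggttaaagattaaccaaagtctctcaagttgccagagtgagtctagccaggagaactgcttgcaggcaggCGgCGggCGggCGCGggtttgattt
Hoxa7: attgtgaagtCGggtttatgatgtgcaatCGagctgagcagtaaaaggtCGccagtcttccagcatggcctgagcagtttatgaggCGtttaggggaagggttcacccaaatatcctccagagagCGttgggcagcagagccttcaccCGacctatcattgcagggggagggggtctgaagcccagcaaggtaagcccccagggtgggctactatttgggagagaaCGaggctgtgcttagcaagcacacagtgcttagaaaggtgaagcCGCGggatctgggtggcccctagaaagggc
The windows are chr6:52227321-52227620 for Hoxa9, chr6:52240805-52241104 for Hoxa10 and chr6:52218524-52218823 for Hoxa7, all on the minus strand. Hoxa10 has another window in the table, which lies within the gene and holds 21 CG dinucleotides, and the Hoxa9 and Hoxa7 windows lie within the spans annotated in GENCODE. The printed windows hold 4, 12 and 9 CG dinucleotides in that order. The table has 24 windows for 22 of the 38 members, with a median of 14.5 and a range of 4 to 45 CG dinucleotides, against a median of 7 over all 32841 windows. Searched on both strands, the Meis-type motif TGACAG occurs in 2 of the 24 windows (Hoxa2 and Hoxa3) and in 19.2% of all windows. The joint Pbx and Hox motif TGATTNAT occurs in 2 (Hoxa2 and 1 of the Hoxd11 windows) against 3.22% of all, and the TATA motif TATAAA in 4 against 13.6% of all. None of the 3 motifs contains another.

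Most counts of the Hoxb genes lay in HSCs, with Hoxb4 as the main exception. Summed over the cluster, they took 9.29% ± 1.80 of the Hox counts in Mbd3del HSCs and 9.86% ± 2.02 in control HSCs, and at most a mean of 1.83% in the other groups (SD, n = 5 each). Hoxb5, a central-group gene that marks long-term stem cells in mouse bone marrow (chromosome 11, 96303336 to 96306121), was the leading member. It had 18.4, 10.4, 22.5, 19.9 and 39.6 CPM in the Mbd3del HSC libraries and 27.5, 13.1, 21.4, 21.8 and 14.7 CPM in the control HSC libraries. The 30 libraries of the later populations held 4 counts of Hoxb5 and the 10 HSC libraries 1128, and no later library came above 0.193 CPM.

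Per gene count, Mbd3del LMPPs held 0.136% of the Hoxb5 of Mbd3del HSCs (counting interval 0.00343% to 0.758%, 1 against 604 counts), and control LMPPs 0.147% of that of control HSCs (0.00371% to 0.821%, 1 against 524). Control ALPs and control BLPs had no count of Hoxb5, which makes them at least 222-fold and at least 208-fold lower than control HSCs, taking 3 counts over the group as the floor. These intervals are at 95% and, like the floor, cover counting error only, since amplified reads are not independent molecules.

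Its neighbours followed the same distribution at lower levels. Hoxb6 had 1.18, 7.06, 3.37, 1.43 and 2.70 CPM in Mbd3del HSCs and 3.39, 3.99, 6.21, 7.49 and 2.92 CPM in control HSCs, with 199 counts in all. It had no count in the 30 other libraries, which makes LMPPs at least 29.3-fold lower than HSCs in Mbd3del mice and at least 55.1-fold lower in control mice. Counts in the 30 libraries of the later populations against the 10 HSC libraries were 8 against 90 for Hoxb7, 1 against 71 for Hoxb9, 1 against 50 for Hoxb2, 15 against 49 for Hoxb3 and 0 against 6 for Hoxb8. All 8 later counts of Hoxb7 lay in the BLPs of control mouse10357. For Hoxb2 27.3% and for Hoxb3 52.9% of the exon bases are shared with the antisense gene Hoxb3os, so reads over those bases cannot be told from reads of that gene.

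Hoxb4, an anterior-group gene known for expanding stem cells when overexpressed, was counted in every population (96318267 to 96321638). In HSCs it had 4.55, 2.35, 14.5, 3.48 and 5.76 CPM in the Mbd3del libraries and 8.18, 10.2, 5.28, 5.89 and 3.34 CPM in the control libraries. Outside HSCs it was still counted in 25 of 30 libraries, with means between 0.613 CPM in Mbd3del BLPs and 3.66 CPM in control ALPs. The last of these means rested on control mouse10372, at 13.7 CPM, since the other 4 control ALP libraries had 0 to 2.45 CPM.

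**Figure D3:**
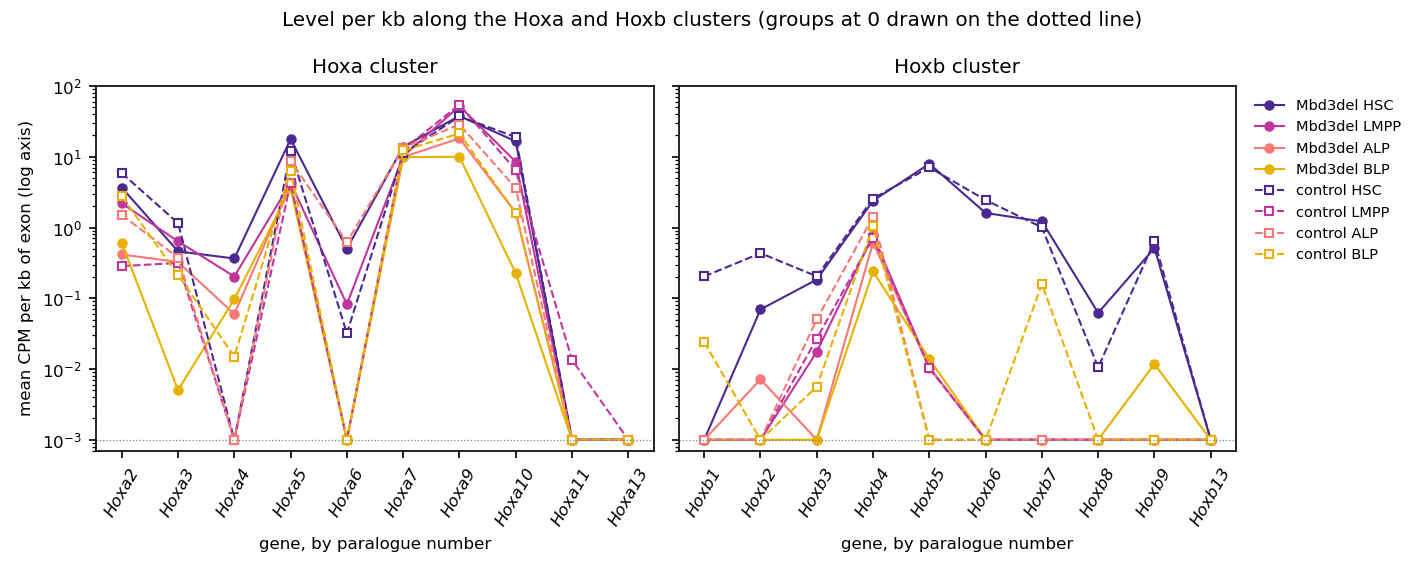
Mean CPM per kb of exon (log axis) for the Hoxa and Hoxb genes in order of number, with Mbd3del as filled circles on solid lines and control as open squares on broken lines, coloured by population. Groups at 0 are drawn on the dotted line. The Hoxa profiles peaked at Hoxa9 in every group, and the Hoxb profiles of HSCs peaked at Hoxb5 whereas those of the other populations had their highest value at Hoxb4.

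The next comparison asked which Hox genes differ between HSCs and LMPPs, the first step of the path. Of 8 members tested in Mbd3del mice, 2 were lower in LMPPs and none higher, against a background of 3.75% of all tested genes called lower. These were Hoxb5, with a fitted log2 fold change of -8.64 ± 0.98 (SE, edgeR adjusted p = 5.54e-05), and Hoxa5 at -1.96 ± 0.53 (adjusted p = 0.0380). With the mouse as a block the count was 1, since Hoxa5 had an adjusted p = 0.0870, and leaving out any of 9 of the 10 libraries, among them HSC mouse10365 with its 68.1 CPM, also ended the Hoxa5 call (edgeR adjusted p 0.0520 to 0.134). Of the 8 alternatives other than leaving out single libraries, 5 kept the Hoxa5 call. Of 9 members tested in control mice, 2 were lower, against 3.17% of all tested genes: Hoxb5 (-8.66 ± 1.10, edgeR adjusted p = 0.000329) and Hoxb6 (-7.93 ± 1.33, adjusted p = 0.00691). The Hoxb6 call was lost with the mouse as a block (adjusted p = 0.0984) and without mouse10372 and mouse10381 (adjusted p = 0.0753), among others. Of the 8 alternatives that tested Hoxb6, other than leaving out single libraries, 5 kept its call. Hoxb5 and Hoxb6 passed the filter only through their HSC libraries, so that a difference was built into their being tested. Their fitted fold changes and the SE derived from them depend on the small count that edgeR adds.

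Hoxa9 had positive fold changes at this step, 0.52 ± 0.19 in Mbd3del and 0.61 ± 0.21 in control mice, but neither passed the threshold (edgeR adjusted p = 0.141 and 0.124). Hoxa10 had -0.89 ± 0.28 and -1.49 ± 0.48 (edgeR adjusted p = 0.0812 and 0.100), and DESeq2 called it in both (adjusted p = 0.0114 and 0.0213). Markers of other cell types moved in both directions at the same step. The summed level of the 4 megakaryocyte genes Pf4, Itga2b, Gp9 and Vwf was 8.40 to 28.8 CPM in Mbd3del and 0.154 to 28.4 CPM in control LMPPs, against 102 to 294 CPM in Mbd3del and 78.3 to 155 CPM in control HSCs. Mpo, a neutrophil and monocyte marker, was called higher in LMPPs (8.44 in Mbd3del and 7.95 in control mice, edgeR adjusted p = 6.11e-08 and 3.50e-07). So was Pdgfrb, a stromal marker (4.35 and 4.63, edgeR adjusted p = 0.00722 and 0.0186). The part of these markers in the Hox differences was not tested. In pooled cells a smaller share of expressing cells and less RNA per cell cannot be told apart, which holds for every difference here. Pool size also differed between HSCs and the rest: the sample labels state 150 cells for HSCs and 100 for the others, and the series text states the reverse.

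At the step to ALPs Hoxa9 had lower values in both genotypes and was called by edgeR in Mbd3del mice. It was the member called of 6 tested, at -1.44 ± 0.18 for ALPs over LMPPs (edgeR adjusted p = 0.000446), against 1.07% of all tested genes called lower. All Mbd3del ALP libraries lay below all Mbd3del LMPP libraries, and all control ALP libraries lay below all control LMPP libraries. The Hoxa9 difference between genotypes at this step was not called (-0.42 ± 0.28, edgeR adjusted p = 0.999). Hoxa10 stood at -2.32 ± 0.59 (edgeR adjusted p = 0.0637), past the threshold with DESeq2 (0.00231) and without ALP mouse10360 (edgeR adjusted p = 0.0149). In control mice edgeR called 0 of 7 members, against 0.938% of all tested genes called in either direction. There 1 member, against 7.83% of all tested genes, had an unadjusted p under 0.05, Hoxa9 at -0.9994 ± 0.25 (adjusted p = 0.104), which DESeq2 called (adjusted p = 0.0111). The medians of the members tested were -0.54 in Mbd3del and 0.06 in control mice, against -0.01 and 0.02 over all genes tested. Markers of other lineages were called at the same step. In Mbd3del mice 3 of 5 tested B lineage markers were higher in ALPs (Ebf1, Rag1 and Cd79a), Ly6c2 was higher, and Prtn3, Hbb-bt and Itga2b were lower, while in control mice Ebf1 and Rag1 were higher and Prtn3 and S100a8 lower. The summed B lineage level was 200 to 360 CPM in Mbd3del ALPs against 131 to 173 CPM in Mbd3del LMPPs, and 188 to 271 CPM in control ALPs against 126 to 213 CPM in control LMPPs. The 5 erythroid markers summed to 1.95 to 4.11 CPM in Mbd3del ALPs against 16.2 to 47.5 CPM in Mbd3del LMPPs, and to 0.786 to 6.72 CPM in control ALPs against 4.78 to 15.9 CPM in control LMPPs. The part of these markers in the Hox differences was not tested.

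Between ALPs and BLPs edgeR called 0 of 4 members in Mbd3del and 0 of 5 in control mice, against 0.636% and 0.266% of all tested genes called in either direction. At an unadjusted p under 0.05 there were 2 members in Mbd3del mice, Hoxa9 (-0.80 ± 0.24, edgeR adjusted p = 0.249) and Hoxa10 (-2.74 ± 1.12, adjusted p = 0.540), and 0 in control mice, against 7.75% and 4.35% of all tested genes. Hoxa10 could pass the filter in Mbd3del mice only through its ALP libraries, so that a fall was partly built into its being tested. DESeq2 called 0 in both. In the joint fit of all 40 libraries edgeR called Hoxa3 and Hoxa10 in Mbd3del mice. Markers called higher in BLPs at this step were Ebf1, Rag1, Cd79a and Ly6c2, in both genotypes.

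Across the whole path, BLPs differed from HSCs in more members. Of 7 members tested in Mbd3del mice, 4 were lower in BLPs, against 9.83% of all tested genes. Hoxa10 fell by 5.93 ± 0.72 on the log2 scale (SE, edgeR adjusted p = 3.64e-05), and its 22 counts in BLPs against 1429 in HSCs are 1.33% per gene count (counting interval 0.829% to 2.02%). Hoxa9 fell by 1.71 ± 0.24 (adjusted p = 0.000129). Hoxa5 fell by 2.02 ± 0.52 (edgeR adjusted p = 0.0129), a call that was lost with the mouse as a block (adjusted p = 0.0529) or without HSC mouse10365 (0.0535). Of the 8 alternatives other than leaving out single libraries, 6 kept the Hoxa5 call. Hoxb5 had 1 count in BLPs against 604 in HSCs, which is 0.143% per gene count (interval 0.00361% to 0.798%). Hoxb5 and Hoxa10 could pass the filter only through the HSC libraries, so that a difference was built into their being tested, and the count of 4 is read with that limit.

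Of 9 members tested in control mice, 3 were lower in BLPs, against 8.33% of all tested genes. Hoxa10 fell by 3.47 ± 0.54 on the log2 scale (edgeR adjusted p = 0.000434), with 183 counts in BLPs against 1738 in HSCs, or 8.85% per gene count (interval 7.56% to 10.3%). Hoxb5 and Hoxb6 had no count in control BLPs, which makes them at least 208-fold and at least 50.4-fold lower than in control HSCs. Both passed the filter only through the HSC libraries, so their calls were built into their being tested. Hoxa10 also needed HSC libraries to pass, since the BLP library of mouse10357 lay below the filter level. The count of 3 is read with these limits. Hoxa9 had -0.72 ± 0.27 (adjusted p = 0.101), and it passed the threshold without BLP mouse10372 (-0.92, adjusted p = 0.0274). The HSC libraries of a genotype served in both comparisons with HSCs.

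Lineage markers differed between BLPs and HSCs too. Of the 6 B lineage markers tested, 5 were higher in Mbd3del and 6 in control BLPs, and the 8 listed summed to 637 to 1367 CPM in Mbd3del BLPs against 87.4 to 227 CPM in Mbd3del HSCs, and to 665 to 2046 CPM in control BLPs against 96.7 to 234 CPM in control HSCs. All 4 megakaryocyte markers were lower in Mbd3del BLPs, and 2 of 3 tested in control BLPs, with sums of at most 2.78 CPM in Mbd3del and 5.57 CPM in control BLPs. Hbb-bt was lower in both genotypes. Neutrophil and monocyte markers were called in both directions, among them Mpo and Ly6c2 higher and Prtn3 and S100a8 lower in both genotypes. Their part in the Hox differences was not tested.

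**Figure D4:**
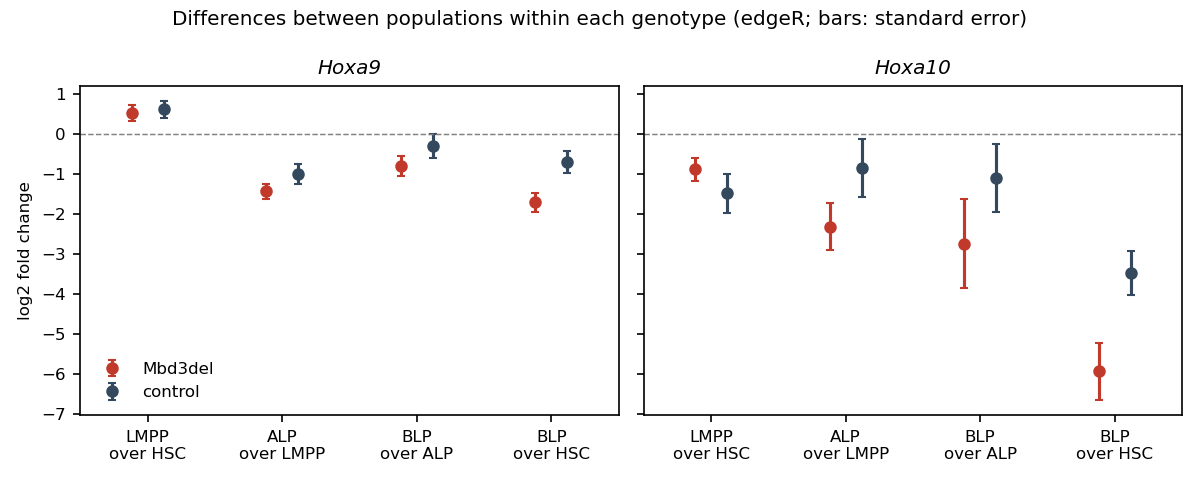
Log2 fold change (edgeR, bars are an approximate standard error derived from the F statistic) of Hoxa9 and Hoxa10 for each later population over the earlier one, in Mbd3del (red) and control (grey blue) mice, 5 libraries per population. Both genotypes stood on the same side of 0 at each of the 4 comparisons, and for BLPs over HSCs Hoxa10 was at -5.93 in Mbd3del and -3.47 in control mice.

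The genotype comparison asks whether loss of Mbd3 changes Hox expression within a population. In HSCs edgeR called 0 of 9 members, against 0.0176% of all tested genes, and 0 had an unadjusted p under 0.05, against 4.11% of all genes. In LMPPs it called 0 of 6, against 0.0183%, with 0 under an unadjusted p of 0.05, against 5.18% of all genes. In ALPs it called 0 of 5, against 0.0182%, with 1 under an unadjusted p of 0.05, against 2.30% of all genes. Mbd3 itself was not called in ALPs (-6.09 ± 1.05, SE, edgeR adjusted p = 0.128). The lack of a Hox call there therefore does not show the lack of a change. In BLPs edgeR called 0 of 5, against 0.0743%, with 2 under an unadjusted p of 0.05, against 8.31% of all genes. These were Hoxa9 and Hoxa10, and Hoxa10 passed the filter mainly through control libraries. DESeq2 called 0 members in all 4 populations. The summed Hox level was 384 ± 62.1 CPM in Mbd3del and 380 ± 36.5 CPM in control HSCs, and 366 ± 42.0 against 374 ± 124 CPM in LMPPs (SD, n = 5 each).

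In ALPs and BLPs summed Hox levels were 147 ± 18.3 CPM in Mbd3del ALPs against 237 ± 72.9 CPM in control ALPs, and 93.7 ± 21.4 CPM in Mbd3del BLPs against 182 ± 51.8 CPM in control BLPs (SD, n = 5 each). Hoxa9 made up a mean of 69.2% of the Hox counts in Mbd3del and 68.3% in control ALPs. In BLPs its mean shares were 59.3% and 64.2%, so the sums largely restate Hoxa9. The highest control ALP sum was 354 CPM, in mouse10372, and the ALP medians were 145 CPM in Mbd3del and 227 CPM in control libraries. The median of the 5 tested fold changes was -0.60 in ALPs and -1.09 in BLPs, against -0.04 and -0.03 over all genes tested, of which 53.7% and 52.3% had negative estimates. In BLPs Hoxa10 and Hoxb4 passed the filter mainly through control libraries, so their negative values were partly built into their being tested. The other members tested in BLPs, Hoxa9, Hoxa5 and Hoxa7, stood at -1.09, -0.80 and -0.31. In ALPs Hoxa3 stood at -0.02 ± 1.13, and its pooled counts lay the other way, 69 in Mbd3del against 55 in control ALPs (124% per gene count, interval 86.1% to 181%). Hoxa9 had -0.60 ± 0.23 in ALPs (edgeR adjusted p = 0.9999) and -1.09 ± 0.31 in BLPs (edgeR adjusted p = 0.279). In BLPs DESeq2 gave Hoxa9 an adjusted p = 0.0562, and the joint edgeR fit of all 40 libraries called it (-1.101, adjusted p = 0.0187). Without mouse10372 and mouse10381 Hoxa9 stood at -0.86 ± 0.34 in BLPs (edgeR adjusted p = 0.613) and at -0.46 ± 0.23 in ALPs. Hoxa10 had -2.77 ± 1.10 in BLPs (edgeR adjusted p = 0.490), with 22 counts in Mbd3del against 183 in control libraries.

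Other transcripts moved beside these values. The 6 neutrophil and monocyte markers summed to 340 to 644 CPM in Mbd3del and 107 to 294 CPM in control BLPs, with 5 of 5 tested members positive, of which Ly6c2 was called (2.73 ± 0.43, edgeR adjusted p = 0.0384), while Elane was at 0 in control BLPs. The 8 B lineage markers summed to 637 to 1367 CPM in Mbd3del and 665 to 2046 CPM in control BLPs, with 7 of 8 negative and none called. In ALPs the neutrophil and monocyte sums were 532 to 1839 CPM for Mbd3del and 213 to 931 CPM for control libraries, with Elane at 0 in both and none called, and the B lineage sums were 200 to 360 CPM in Mbd3del and 188 to 271 CPM in control libraries. The part of these markers in the Hox differences was not tested.

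**Figure D5:**
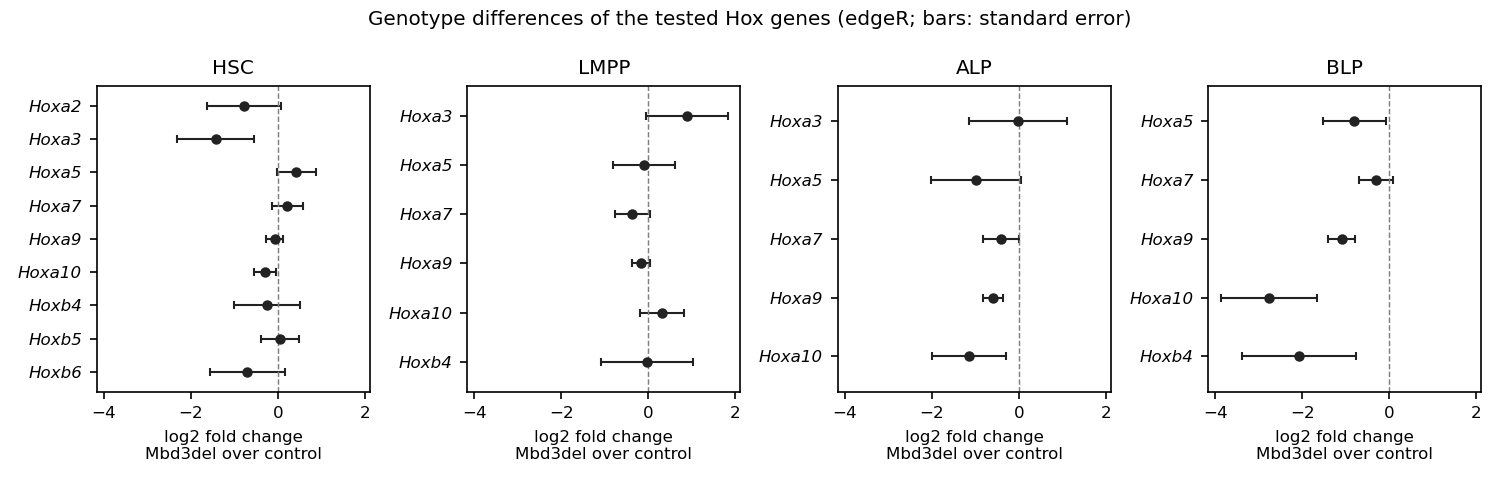
Log2 fold change of Mbd3del over control (edgeR, bars are an approximate standard error derived from the F statistic, 5 libraries per genotype) for the Hox genes tested in each population. Estimates lay on both sides of 0 in HSCs and LMPPs and on the negative side in ALPs and BLPs, with Hoxa3 in ALPs at -0.02 ± 1.13, and none passed the adjusted threshold. In BLPs Hoxa10 and Hoxb4 passed the filter mainly through control libraries.

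Whether a step of the path differed between genotypes was tested as an interaction. For LMPPs over HSCs edgeR called 0 of 9 members and for ALPs over LMPPs 0 of 7, with 0 members at an unadjusted p under 0.05 in each, against 5.13% and 4.51% of all genes. For BLPs over ALPs it called 0 of 7, with 1 member at an unadjusted p under 0.05, against 4.03% of all genes, and for BLPs over HSCs 0 of 9, with 3, against 7.83%. The shares of all tested genes called were 0%, 0%, 0% and 0.0472%, and DESeq2 called 0 members in all 4. For BLPs over HSCs the difference of log2 fold changes, Mbd3del minus control, was -2.44 ± 0.81 for Hoxa10 (edgeR adjusted p = 0.484), -0.98 ± 0.36 for Hoxa9 (adjusted p = 0.514) and -3.13 ± 1.47 for Hoxa3 (adjusted p = 0.622). The larger fall of Hoxa10 and Hoxa9 in Mbd3del mice is thus not shown to differ from that in control mice at the adjusted threshold. Hoxb6 had no count outside HSCs and its interaction has no usable error.

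Of the genes that act with or on the Hox clusters, a few were called along the path. TALE homeodomain proteins (Meis, Pbx, Pknox and Tgif families) bind DNA together with Hox proteins. No such gene was called higher in LMPPs than in HSCs in either genotype. Meis1, the partner of Hoxa9 in leukaemia, averaged 293 ± 28.8 CPM in Mbd3del LMPPs against 575 ± 41.6 CPM in Mbd3del HSCs (-0.93 ± 0.18, edgeR adjusted p = 0.00443), and 202 ± 59.8 against 556 ± 132 CPM in control mice (-1.39 ± 0.22, adjusted p = 0.00194; SD, n = 5 each). Pbx3 was called in control mice (-5.27 ± 1.33, edgeR adjusted p = 0.0345), where it averaged 0.529 CPM in LMPPs against 22.9 CPM in HSCs, while Mbd3del mice, in which it was not called, had 2.55 CPM in LMPPs against 27.2 CPM in HSCs. No interaction was called for it.

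Meis1 was also lower in ALPs than in LMPPs in Mbd3del mice (-1.09 ± 0.19, edgeR adjusted p = 0.00760), the same step at which Hoxa9 was called. For BLPs over HSCs, Meis1 was called lower in each genotype, at -2.65 ± 0.31 in Mbd3del and -1.87 ± 0.26 in control mice (edgeR adjusted p = 2.69e-05 and 0.000172). In BLPs Meis1 averaged 78.9 ± 34.6 CPM for Mbd3del and 143 ± 49.0 CPM for control mice (SD, n = 5 each). No TALE gene was called between genotypes in any population or as an interaction.

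Among 15 genes of the activating machinery, 12 were tested for LMPPs over HSCs and 2 were lower in each genotype, none higher, where 3.75% of all tested genes in Mbd3del and 3.17% in control mice were called lower. Mllt3 (AF9), a subunit of the super elongation complex and a frequent fusion partner of Kmt2a in leukaemia, averaged 30.4 ± 17.7 CPM in Mbd3del LMPPs against 689 ± 54.6 CPM in Mbd3del HSCs, and 21.6 ± 9.71 against 725 ± 96.1 CPM in control mice (SD, n = 5 each). Its fold changes were -4.47 ± 0.34 and -4.97 ± 0.39 (edgeR adjusted p = 1.02e-06 and 6.67e-06). Kmt2a had -0.86 ± 0.23 in Mbd3del and -1.28 ± 0.34 in control mice (edgeR adjusted p = 0.0329 and 0.0439). Mllt3 stayed low in BLPs, at 18.5 CPM in Mbd3del and 19.0 CPM in control cells. Transcripts of Cdx1, Cdx2 and Cdx4, which switch on Hox genes in the embryo, were at 0 in the HSCs of both genotypes.

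Of 17 Polycomb genes, all were tested in each comparison, and for BLPs over HSCs 2 were higher and 1 lower in Mbd3del mice, and 1 higher and 1 lower in control mice. Over all tested genes 9.48% were called higher and 9.83% lower in Mbd3del mice, and 7.34% and 8.33% in control mice, so the Polycomb counts lie near the background. Ezh2, the main methyltransferase of Polycomb repressive complex 2 in dividing cells, was higher by 1.76 ± 0.25 in Mbd3del and 1.14 ± 0.36 in control mice (edgeR adjusted p = 0.000158 and 0.0467). It averaged 234 ± 29.6 CPM in Mbd3del BLPs against 79.2 ± 18.7 CPM in Mbd3del HSCs, and 165 ± 44.7 against 79.4 ± 42.5 CPM in control mice (SD, n = 5 each). Suz12, a core subunit of the same complex, was higher in Mbd3del mice (0.96 ± 0.24, edgeR adjusted p = 0.00996). Cbx7, a reader of its mark within repressive complex 1, fell by 2.76 ± 0.56 in Mbd3del and by 2.16 ± 0.41 in control mice (edgeR adjusted p = 0.00255 and 0.00211). No Polycomb or activating gene was called between genotypes or as an interaction.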

How the data were processed

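RNA of pools of sorted cells was measured by Smart-seq2, which copies full-length transcripts without molecular identifiers and without marking strand, in 40 libraries. The deposited table holds raw counts, without normalization. The submitters' processing notes name STAR 2.5.2b, HTSeq 0.6.1p1 and GRCm38; annotation release and strand setting are not known here. The 79325 rows named repRegion held 0.205% to 2.28% of each library and entered neither library sizes nor tests. Identifiers were matched to GENCODE M21 (37 members by the same version, 1 without version), which gave symbols, coordinates and exon lengths. A gene that the rule also takes and a gene of the lists are not reported here.

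CPM are counts per 1000000 gene counts, with no further scaling, and CPM per kb divide these by the length of all annotated exons. A floor of 3 counts corresponds to 0.330 to 1.01 CPM in a single library. The quasi-likelihood test of edgeR 4.0.16 (R 4.3.3) was fitted separately to the libraries of each of 16 comparisons (robust, TMM scaling, minimum count 10, minimum total 15), and p-values were adjusted over all genes tested by Benjamini-Hochberg, with a threshold of 0.05. Every adjusted p is from this test unless DESeq2 (1.42.0) is named. The test gives no standard error, so each SE is the size of the log2 fold change divided by the square root of its F statistic. It is approximate, and it is not reliable for genes with counts near 0 in a group. Fits were tested on simulated data. Alternatives were DESeq2, other scaling (median-ratio size factors, or library totals alone), no filter or a minimum count of 50, the newer edgeR estimator, a joint fit of all 40 libraries, the mouse as a block, leaving out control mouse10372 with mouse10381, and leaving out each library.

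All 4 populations of a mouse share its number, so the pairing comes from the design. Deviations from the group means correlated with a median of 0.0252 between libraries of the same mouse and -0.00707 between other mice of the genotype. Libraries of a group come from separate mice. Library values are given for members whose mean reached 5 CPM in any group, and list genes that passed the threshold could be named, up to 4 per direction. Lineage markers called beside a Hox result were named after their values were seen. The members, gene lists and tests were chosen with earlier results of these data known.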

Additional observations from a re-analysis of the deposited data

Results flagged for a closer look

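Within groups of 5 libraries, 38 sets of values (a gene in a group with a mean of at least 5 CPM) were examined for a library that stood far from the other 4, and 2 were found. Chance alone flags about 1 in 20 such sets. Hoxa7 had 54.3 CPM in the ALPs of Mbd3del mouse10376, and the next highest Mbd3del ALP library had 25.3 CPM. Hoxb4 had 14.5 CPM in the HSCs of Mbd3del mouse10365, and the next highest Mbd3del HSC library had 5.76 CPM. Neither gene was called in the genotype comparison of that population with or without the library in question.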

How the results depend on the processing

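The number of members called was within 1.5 times of the number given, or 0 in both, in the alternatives not named here. Between genotypes in BLPs the joint fit called 1 (Hoxa9). For LMPPs over HSCs in Mbd3del mice, where 2 were called, the block fit called 1, the joint fit called Hoxb6 in place of Hoxa5, and leaving out single libraries gave 1 to 2. In control mice, with 2 called, a minimum count of 50 gave 1, the block 1 and the newer estimator 4. For ALPs over LMPPs in Mbd3del mice, with 1 called, DESeq2, the newer estimator and the joint fit called 2 each, and leaving out single libraries gave 1 to 2. In control mice, with 0 called, DESeq2 and the joint fit called 1 each (Hoxa9). For BLPs over ALPs in Mbd3del mice, with 0 called, the joint fit called 2. The replicate block changed no call other than those of Hoxa5 and Hoxb6 given beside their results. Gene values were followed over the alternatives only where the main fit gave an unadjusted p under 0.05, which held for 32. Of 583 refits of these 32 gene values, 542 kept direction and side of the threshold, 18 lost and 23 gained the call, and 0 reversed. Values chosen this way seldom change sign in refits of mostly the same libraries. The 0 therefore says nothing of the other member values. Over all genes, calls moved by more than 1.5 times under several alternatives. The ranges of calls over all genes given here do not cover the fits that leave out single libraries. Between genotypes there were 2 calls for HSCs (0 to 14 over the alternatives), 2 for LMPPs (2 to 36), 2 for ALPs (2 to 14) and 8 for BLPs (1 to 158), each highest with DESeq2. In the order Mbd3del, control, they numbered 766 (686 to 1345) and 655 (436 to 1287) for LMPPs over HSCs, 242 (154 to 474) and 102 (31 to 363) for ALPs over LMPPs, 69 (41 to 207) and 29 (8 to 67) for BLPs over ALPs, and 2174 (1908 to 3206) and 1755 (1516 to 2684) for BLPs over HSCs. The interactions had 0 calls for the 3 single steps (at most 27) and 6 for BLPs over HSCs (1 to 48). The causes were not tested. Depth limits the 29 untested members, most of them at or near 0, for which only counts are given.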

Other observations

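Noncoding genes of the Hoxb cluster were also counted, several of them mostly in HSCs, and the 2 with the most counts are given. Hoxb5os, an antisense gene that shares exon bases with Hoxb5, averaged 3.96 CPM in Mbd3del and 6.07 CPM in control HSCs and at most 0.599 CPM in any other group. Hoxb3os, which shares exon bases with Hoxb2 and Hoxb3, averaged 1.98 CPM in Mbd3del and 2.25 CPM in control HSCs and at most 0.151 CPM in any other group. Both were singled out after their values were seen, and without strand their reads cannot be told from those of the genes they overlap.

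Of the flanking genes, Skap2, a signalling adaptor gene beside the Hoxa cluster, was lower in BLPs than in HSCs of control mice (-0.82 ± 0.18, SE, edgeR adjusted p = 0.00593), at 173 CPM in BLPs against 326 CPM in HSCs. In Mbd3del mice it had 188 CPM in BLPs against 262 CPM in HSCs and was not called.

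The ALP library of control mouse10372 held counts of Hox genes that were at or near 0 in most other libraries, an observation made after its values were seen. That library had 3363182 gene counts, the fewest of the ALP libraries, and 15745 genes detected, the most of all libraries. It had 21 of the 22 counts of Hoxd10, all 7 of Hoxc11 and 8 of the 28 of Hoxa6, and the highest control ALP values of Hoxa3 (7.14 CPM), Hoxa5 (49.1 CPM), Hoxa9 (209 CPM) and Hoxb4 (13.7 CPM). In the HSC library of Mbd3del mouse10365, Hoxa4 had 19 of its 38 counts and Hoxa6 12 of its 28.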
